A study of Saccharomyces cerevisiae with 73 samples.

Results

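The genes described here are the autophagy (ATG) genes of budding yeast, chosen by name: every gene on the array whose symbol is ATG followed by a number. There were 36 of them among the 5538 genes with a symbol, each measured by 1 probe. Cells of strain KCN118, an S288C strain of mating type alpha with an ade2 mutation, had been grown in complete dextrose medium with amino acids and inositol, then filtered, washed and moved to 1 of 13 media. A single culture per medium was followed at 15, 30, 60, 120 and 240 min, and its mRNA (labelled with Cy5) was hybridized on 2-colour arrays with mRNA of the same strain before the move (t = 0, labelled with Cy3).

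Amino acids were lost with dextrose kept in SD and SD+ino (no amino acids, without and with inositol). They were partly lost in SD+aa:LIVWHM+ino and SD+aa:ARNCQGKPSDEFTY+ino, which held only the amino acids named by their letters. Carbon was shifted with amino acids kept in SEtOH+aa and SEtOH+aa+ino (ethanol) and in Sgal+aa and Sgal+aa+ino (galactose). Both were changed in SEtOH, SEtOH+ino, Sgal and Sgal+ino, and SD+aa kept dextrose and all amino acids and lacked only inositol. All cultures carry the ade2 allele and went through the same filtering and washing, for which the labels name either distilled water or PBS. The main comparison is amino acid loss against carbon shift.

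Autophagy encloses a piece of cytoplasm in a double membrane and delivers it to the vacuole, the lytic compartment of yeast, where it is broken down and its building blocks are returned to the cytosol. The Atg1 kinase complex starts the process, vesicles with Atg9 bring the first membrane, a lipid kinase complex marks it with phosphatidylinositol 3-phosphate, and Atg8 is coupled to lipid on the growing membrane. Receptor proteins tie chosen cargo (vacuolar enzymes, mitochondria, peroxisomes, parts of the endoplasmic reticulum or nucleus) to Atg8. Autophagy is known to run at a low level in growing yeast and to be induced by starvation for nitrogen or amino acids. In the related cytoplasm-to-vacuole (Cvt) route some of the same proteins carry enzymes to the vacuole during growth. The arrays measure mRNA and not the process itself, in bulk culture, so a change in every cell and a change in some of the cells cannot be told apart.

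Values are given as log2 ratios of moved over t = 0 cells, on the reading that the table holds log10 ratios in that direction. Neither point is stated by the submitters: if the table were already in log2, all values would shrink by a factor of 3.32, and if the ratio ran the other way, all signs would turn. There were no dye swaps, so a gene's dye effect adds to its values against t = 0 and cancels between media and between times. An array carried values for 4954 to 6254 probes, and precision is set by how few cultures and arrays there were. The 8 repeat arrays differed from their partners by an SD of 0.11 for the middle member, with 0.66 for ATG8 as the highest. Those in SD+ino and Sgal+ino carry the technical replicate number of their partners, so the labels do not show them to be separate hybridizations. Of the members, 27 lacked a value on at least 1 of the 73 arrays, and ATG2, with 62, had the fewest. Isolated values at the limit of the table (100-fold in either direction) were taken as missing, 3 of them in ATG10, ATG12 and ATG17. The amino acid label could be checked on GAP1, an amino acid permease that is known to be switched on when nitrogen is poor: over 15 and 30 min it was 4.88 ± 0.19 (SE) higher without amino acids in dextrose.

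The autophagy genes followed 2 opposite courses. After amino acid loss in dextrose they were high at once and returned, and after a carbon shift they started near t = 0 and climbed for 4 h (240 min). The median over the members in SD was 1.15, 1.21, 0.82, 0.47 and 0.16 at 15, 30, 60, 120 and 240 min. In SD+ino it was 1.09, 0.96, 0.61, 0.25 and 0.18. In SEtOH+aa it was 0.21, 0.41, 0.72, 0.83 and 1.12, and in Sgal+aa 0.25, 0.42, 0.69, 1.13 and 1.55. The highest medians of SD and SD+ino thus stood at 15 or 30 min, and those of all 8 ethanol and galactose cultures at 240 min. SD+aa stayed between 0.04 and 0.21 at every time. The lowest of the carbon-shift cultures was Sgal+ino, with 0.77 at 240 min, against 1.18 to 1.55 in the other galactose cultures.

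**Figure D1:**
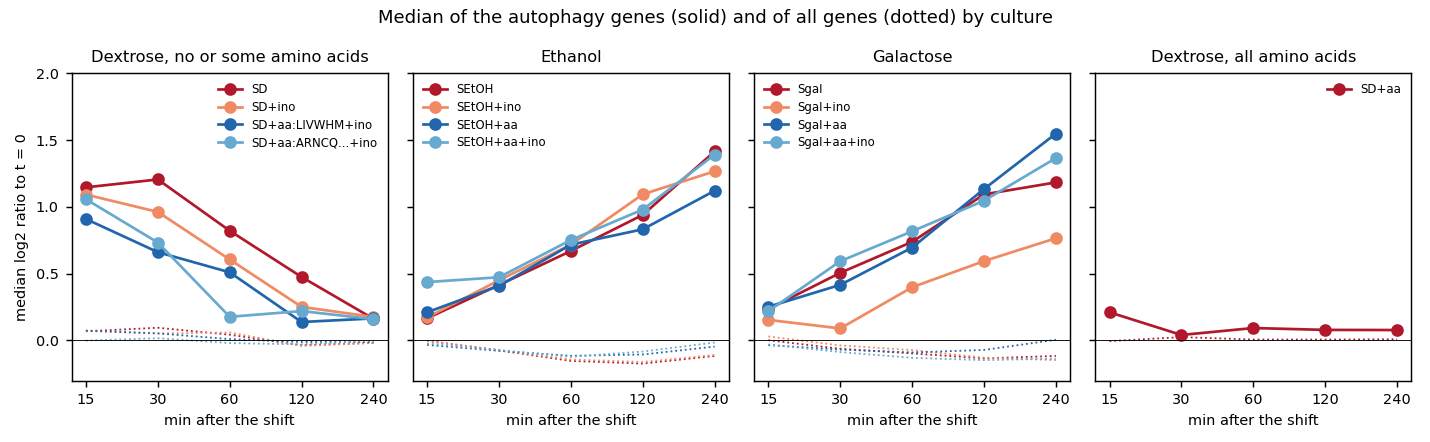
Median log2 ratio to t = 0 (vertical axis) of the autophagy genes (solid lines, points) and of all genes (dotted lines) at 15 to 240 min after the shift (horizontal axis, equal steps), 1 line per culture. In dextrose without all amino acids the members stand at 0.91 to 1.15 at 15 min and at 0.16 to 0.18 at 240 min. Their medians climb in all ethanol and galactose cultures and are at most 0.21 in SD+aa.

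The time at which each gene was highest shows the same. Among members with a value at all 5 times, 31 of 36 were highest at 15 or 30 min in SD and 31 of 36 in SD+ino. The share of all genes highest at those times was 47.2% in SD and 50.1% in SD+ino. Such early peaks were also common with ARNCQGKPSDEFTY (20 of 24 members, 46.7% of all genes), with LIVWHM (9 of 15, 41.7% of all genes) and in SD+aa (23 of 35, 55.4% of all genes). In ethanol, 32 of 36 members were highest at 120 or 240 min in SEtOH, 31 of 36 in SEtOH+ino, 29 of 35 in SEtOH+aa and 29 of 34 in SEtOH+aa+ino. In galactose these counts were 27 of 36 in Sgal, 23 of 35 in Sgal+ino, 32 of 36 in Sgal+aa and 28 of 33 in Sgal+aa+ino. Over all genes the share highest at 120 or 240 min was between 33.6% (Sgal+ino) and 49.8% (Sgal+aa) in these 8 cultures. These counts are descriptions of 1 culture each, with no test.

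**Figure D2:**
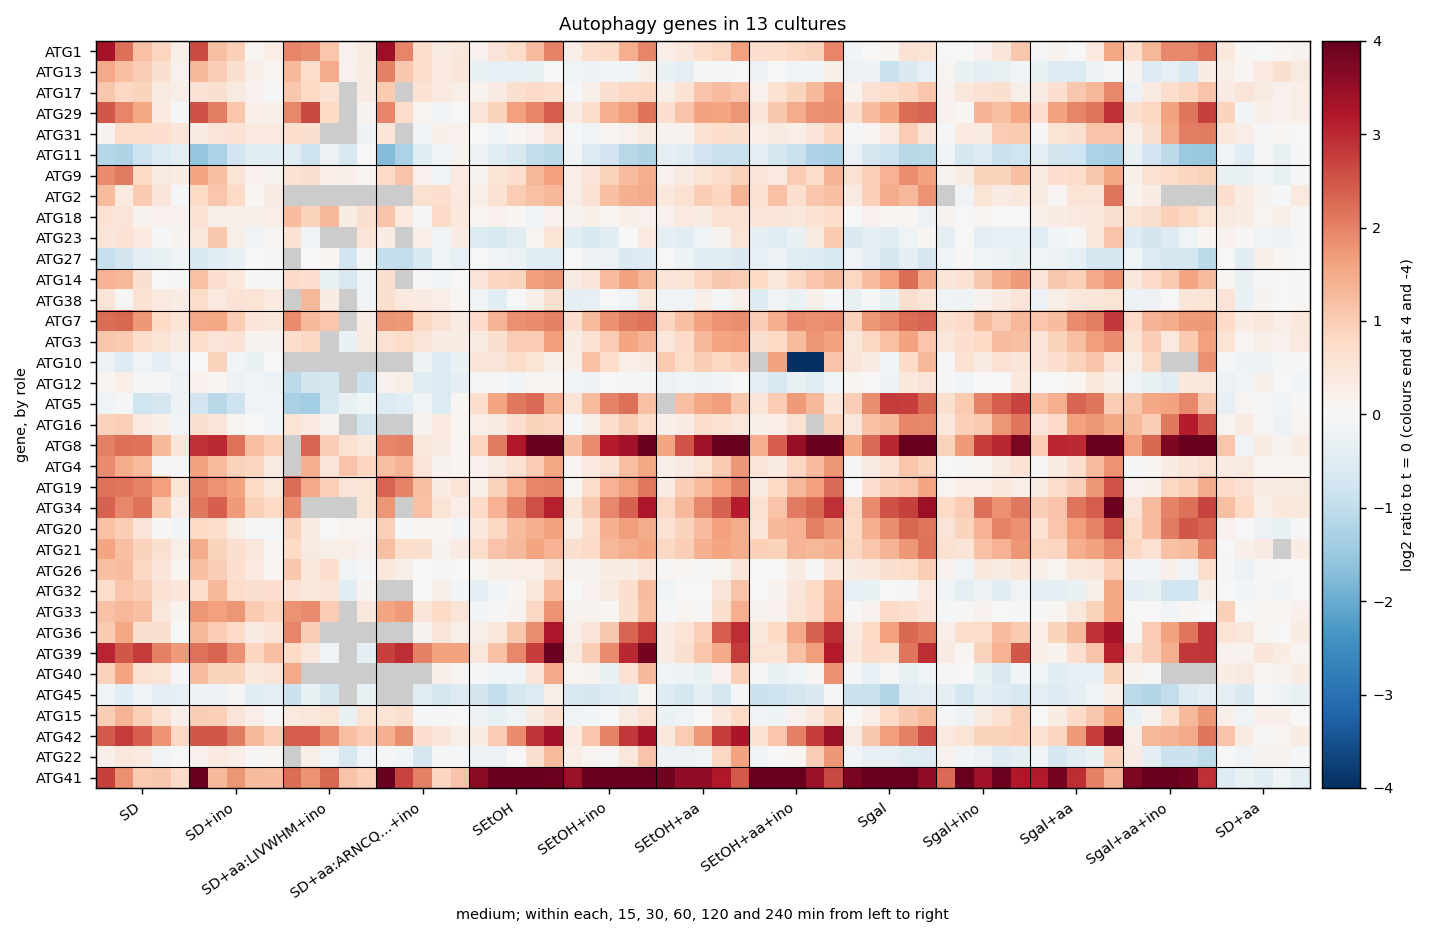
Log2 ratio to t = 0 (colour) of the 36 autophagy genes (rows, grouped by role, with lines between the groups) in 13 cultures (columns, 5 times each from left to right). Grey marks a missing value. Most rows are red at the left of the dextrose blocks without all amino acids and at the right of the ethanol and galactose blocks, ATG11 is blue in most columns, and ATG41 is red in every medium but SD+aa.

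To measure amino acid loss with the carbon source kept, SD and SD+ino were set against SD+aa over 15 and 30 min, in 1 limma fit of all 13 cultures with a term for inositol. Of 29 members tested, 20 rose and 1 fell (adjusted p under 0.05, Benjamini-Hochberg over all genes). Of all 4961 genes tested, 27.6% were higher and 24.5% lower. The median difference of the members was 1.10, against 0.04 for all genes. With quantile normalization, which gives every array the same spread of values, 13 of 29 members passed, and the direction turned for 3 of the 21 (ATG3, ATG19 and ATG34). Shares of all genes called under quantile normalization are not given, so counts of members under it cannot be set against them. Since SD+aa is 1 culture, its own spread is assumed to be that of the culture pairs, and the fit had 4 residual degrees of freedom.

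In the Atg1 complex, 3 of 6 genes rose and 1 fell. ATG1, the kinase itself, was at 3.33 and 2.20 (15 and 30 min) in SD and at 2.61 and 1.19 in SD+ino, against 0.42 and 0.03 in SD+aa. The 4 values without amino acids all lay above both values of SD+aa. The fitted difference was 2.04 ± 0.38 (SE, adjusted p = 0.000784, limma). ATG29, a part of the scaffold used in starvation, was at 2.49 and 1.95 in SD and at 2.54 and 2.04 in SD+ino, against 0.89 and -0.10 in SD+aa (difference 2.00 ± 0.23). ATG13, the regulatory subunit that is known to be a target of the nutrient kinase TORC1, rose by 1.05 ± 0.18. The other scaffold genes, ATG17 (0.47 ± 0.18) and ATG31 (0.05 ± 0.16), did not pass the test. The gene that fell was ATG11, the scaffold used in selective autophagy and the Cvt route. It was at -1.13 and -1.19 in SD and at -1.54 and -1.28 in SD+ino, against -0.17 and -0.46 in SD+aa (difference -0.94 ± 0.17, adjusted p = 0.00065, limma).

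Among the genes for Atg9 vesicles and lipid transfer, ATG9, the membrane protein of the vesicles, was the 1 of 4 tested that rose. It was at 1.90 and 2.07 in SD and at 1.58 and 1.19 in SD+ino, against -0.29 and -0.29 in SD+aa, with no overlap (difference 2.07 ± 0.24, adjusted p = 2.21e-05, limma). ATG23 and ATG27, which help Atg9 traffic, had differences of 0.50 ± 0.21 and -0.49 ± 0.19, and ATG18, which binds phosphatidylinositol 3-phosphate, of 0.10 ± 0.19. ATG14, which directs the lipid kinase complex to autophagy, rose by 1.38 ± 0.20, and ATG38, a linker in that complex, had 0.33 ± 0.19.

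In the conjugation machinery, which couples Atg8 to lipid and Atg12 to Atg5, 5 of 6 genes tested rose. ATG8, the membrane-bound tag to which receptors bind, was at 2.02 and 2.20 in SD and at 2.90 and 2.97 in SD+ino, against 1.12 and -0.13 in SD+aa. All 4 values without amino acids lay above both of SD+aa, which itself was raised at 15 min. The difference was 2.01 ± 0.31 (adjusted p = 0.000207, limma). ATG7, the activating enzyme of both conjugations, rose by 1.49 ± 0.26, and ATG4, the protease that trims Atg8, by 1.25 ± 0.18. ATG12 rose by 0.42 ± 0.16, and ATG3, which hands Atg8 to the lipid, rose by 0.56 ± 0.20 (but -0.07 with quantile normalization). The sixth, ATG5, the partner of Atg12, had -0.20 ± 0.23.

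All 7 tested genes grouped here as receptors and factors of selective autophagy rose. ATG39, the receptor for the nuclear envelope, was at 3.05 and 2.50 in SD and at 2.16 and 2.33 in SD+ino, against 0.17 and 0.14 in SD+aa (difference 2.39 ± 0.28, adjusted p = 2.3e-05, limma). Its lowest value without amino acids was far above SD+aa. The receptors of vacuolar enzymes rose by 1.46 ± 0.17 (ATG19) and 1.30 ± 0.19 (ATG34), but with quantile normalization the differences turned to -0.29 (ATG19) and -1.31 (ATG34). They are neighbours in the yeast gene table and related in sequence, and cross-hybridization between their probes was not tested. ATG26, a sterol glucosyltransferase, rose by 1.38 ± 0.18 and ATG21, a phosphoinositide-binding protein of the Cvt route, by 1.27 ± 0.18. ATG33, a mitochondrial protein needed for the removal of mitochondria, rose by 0.94 ± 0.20, and ATG20, a sorting nexin, by 0.89 ± 0.21.

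Of the genes for breakdown and efflux in the vacuole, ATG42, a carboxypeptidase, rose by 1.83 ± 0.18 and ATG15, the lipase that opens autophagic bodies, by 1.10 ± 0.18. ATG22, an amino acid exporter of the vacuole, had 0.25 ± 0.18. The largest difference among all members was that of ATG41, a factor that binds Atg9. It was at 2.72 and 1.82 in SD and at 4.09 and 1.30 in SD+ino, against -0.50 and -0.28 in SD+aa (difference 2.77 ± 0.38, adjusted p = 8.35e-05, limma).

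The difference from SD+aa was smaller at later times. At single times (a split made after seeing the data) the median difference of the members from SD+aa was 1.16 at 15 min (23 tested), 1.24 at 30 min (24 tested), 0.61 at 60 min (28 tested), 0.27 at 120 min (19 tested) and 0.14 at 240 min (32 tested). Over 120 and 240 min, 0 of 32 members passed the test in limma, where 1.63% of all genes were called. At an unadjusted p under 0.05 there were 3 (465 of 5211 genes), and with trended and robust variances 0 passed. With quantile normalization, however, 10 of 32 did (9 higher and 1 lower). The 1.63% is a share of the main fit and does not apply to that count. The largest late differences were 1.32 ± 0.48 for ATG42 (adjusted p = 0.44, limma), 1.27 ± 0.43 for ATG39 and 1.16 ± 0.52 for ATG41. The spread in the fit comes from culture pairs, most of them in ethanol or galactose. The SE of ATG42 was 0.18 early, so the late test was less precise and does not show that no difference remained. Against t = 0, which includes dye effects, 6 of 32 members were higher late in SD and SD+ino and 0 lower. Of 5211 genes, 406 were higher and 300 lower there. Within SD and SD+ino themselves, the change from early to late (120 and 240 min minus 15 and 30 min, a test chosen after seeing the data) passed the test downwards for 21 of 29 members and upwards for ATG11 and ATG27, with 1 of these 23 directions (ATG39) turned by quantile normalization. Of all genes 30.1% passed downwards and 26.6% upwards. ATG29 changed by -2.05 ± 0.13, ATG1 by -1.98 ± 0.14 and ATG8 by -1.54 ± 0.16. GAP1 was still 5.40 ± 0.45 higher without amino acids at 120 and 240 min.

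The carbon shift with amino acids kept gave few calls early and many late. Over 15 and 30 min, a window added after seeing the data for these comparisons, 6 of 29 members were higher and 0 lower in ethanol than in SD+aa, where 6.75% of all genes were higher and 4.64% lower. In galactose 7 of 29 were higher and 0 lower, where 8.04% of all genes were higher and 8.51% lower. The genes ATG41, ATG8, ATG5, ATG21, ATG14 and ATG20 passed in both, and ATG9 in galactose. Those 2 comparisons share the culture SD+aa. ATG41 differed most, by 4.37 ± 0.38 in ethanol (adjusted p = 2.63e-05, limma) and 4.13 ± 0.38 in galactose.

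Over 120 and 240 min, 19 of 32 members were higher and 1 lower in ethanol with amino acids than in SD+aa, where 21.0% of all genes were higher and 26.5% lower. In galactose with amino acids 19 were higher and 3 lower, where 25.1% of all genes were higher and 31.9% lower. With quantile normalization 12 members passed in ethanol (11 higher and 1 lower) and 15 in galactose (13 higher and 2 lower), and the direction turned for ATG21 in ethanol and for 6 genes in galactose (ATG3, ATG7, ATG17, ATG19, ATG21 and ATG34). The difference was largest for ATG8. In ethanol it was at 5.45 and 4.21 (120 and 240 min) in SEtOH+aa and at 4.43 and 4.32 in SEtOH+aa+ino. In galactose it was at 4.58 and 4.66 in Sgal+aa and at 4.33 and 5.18 in Sgal+aa+ino, against 0.16 and 0.29 in SD+aa. All 8 values of the shifted cultures lay over 4 log2 units above t = 0. The differences were 4.54 ± 0.35 (ethanol, adjusted p = 6.26e-05, limma) and 4.63 ± 0.35 (galactose, adjusted p = 3.81e-05, limma). The value of SEtOH+aa at 120 min averages 2 arrays, 1 of them at the upper limit.

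In the Atg1 complex, ATG29 rose by 1.66 ± 0.33 in ethanol and 2.39 ± 0.33 in galactose, and ATG1 by 1.09 ± 0.38 and 1.27 ± 0.38. ATG17 rose by 1.22 ± 0.33 in ethanol and by 1.17 ± 0.33 in galactose, where quantile normalization gave -0.10. ATG1 was at 0.39 and 1.55 in Sgal+aa and at 1.93 and 2.17 in Sgal+aa+ino, so the 2 galactose cultures lay apart. Its call in ethanol was lost without any 1 of 6 cultures (SEtOH, SEtOH+ino, SEtOH+aa, SEtOH+aa+ino, Sgal or Sgal+ino). ATG31 rose in galactose (1.49 ± 0.34) and had 0.55 ± 0.34 in ethanol. ATG11 was at -0.90 and -0.88 in SEtOH+aa and at -1.24 and -1.31 in SEtOH+aa+ino, against -0.28 and -0.07 in SD+aa. It fell in both shifts, by 0.85 ± 0.26 in ethanol (a call lost without SEtOH+aa+ino) and by 1.17 ± 0.26 in galactose. ATG13 fell in galactose too, with late means of -0.12 in Sgal+aa and -0.15 in Sgal+aa+ino, against 0.50 in SD+aa. Its call was lost in 6 of 12 fits that left out 1 culture. Outside this complex, ATG27 fell in galactose, with late means of -0.67 in Sgal+aa and -0.87 in Sgal+aa+ino, against 0.05 in SD+aa. ATG9 rose by 1.25 ± 0.29 and 1.42 ± 0.29 and ATG14 by 1.18 ± 0.24 and 1.61 ± 0.24, in ethanol and galactose in that order.

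Of the receptors, ATG34 rose by 2.43 ± 0.38 in ethanol and by 2.56 ± 0.38 in galactose (but -0.10 with quantile normalization). ATG39 rose by 2.12 ± 0.43 and 2.32 ± 0.43, and ATG20 by 1.87 ± 0.25 and 2.49 ± 0.25. ATG19 rose by 1.78 ± 0.35 in ethanol and 1.55 ± 0.35 in galactose, and the galactose value turned to -0.30 with quantile normalization. ATG42 rose by 3.16 ± 0.48 and 2.62 ± 0.48. ATG15 rose in galactose (1.35 ± 0.25) and had 0.57 ± 0.25 in ethanol, and ATG22 rose in ethanol (1.37 ± 0.41, a call lost without SEtOH+aa+ino) and had -0.21 ± 0.41 in galactose.

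Ethanol and galactose were set against each other over the 4 cultures of each at 120 and 240 min, a comparison added after seeing the data. Of 32 members, 4 were higher and 6 lower in ethanol, where 10.6% of all genes were higher and 9.0% lower. The 4 were ATG22 (1.47 ± 0.23, adjusted p = 0.00547, limma), ATG42 (1.01 ± 0.27), ATG32 (0.80 ± 0.23), the receptor for mitochondria, and ATG19 (0.66 ± 0.20). ATG22 was at 0.44 to 0.98 at 120 min and at 1.15 to 1.73 at 240 min in ethanol, against -0.87 to -0.25 and -1.02 to 0.96 in galactose. Sgal+aa at 240 min, with 0.96, was the 1 galactose value above 0. The 6 that were lower in ethanol were ATG16 (-1.29 ± 0.21), which joins Atg12 and Atg5 into a complex, ATG31 (-0.76 ± 0.19), ATG15 (-0.64 ± 0.14), ATG5 (-0.58 ± 0.15), ATG20 (-0.57 ± 0.14) and ATG12 (-0.44 ± 0.13). ATG16 was at 0.62 to 1.00 at 120 min and 0.46 to 0.92 at 240 min in ethanol, against 1.76 to 3.14 and 1.54 to 2.51 in galactose, so its ranges did not overlap at either time.

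Amino acid loss and carbon shift were compared directly as SD and SD+ino against the mean of the ethanol and galactose cultures with all amino acids, which uses no value of SD+aa. Over 15 and 30 min, 21 of 29 members were higher after amino acid loss and 4 lower, where 35.2% of all genes were higher and 29.2% lower. Quantile normalization turned 4 of these 25 directions (ATG7, ATG8, ATG14 and ATG21). Over 120 and 240 min the direction was the other way: 2 of 32 were higher and 21 lower, where 35.4% of all genes were higher and 28.1% lower, and quantile normalization left 14 calls (4 higher and 10 lower) and turned 7 of these 23 directions (ATG11, ATG18, ATG19, ATG31, ATG39, ATG41 and ATG42). The change from early to late differed between the 2 treatments for 27 of 29 members. It was lower after amino acid loss for 25 and higher for 2 (ATG11 and ATG27), where 36.9% of all genes were lower and 35.9% higher, and quantile normalization turned 5 of these 27 directions (ATG3, ATG11, ATG18, ATG31 and ATG38). The median of the members was 0.62 early and -0.94 late, against 0.06 and 0.11 for all genes.

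**Figure D3:**
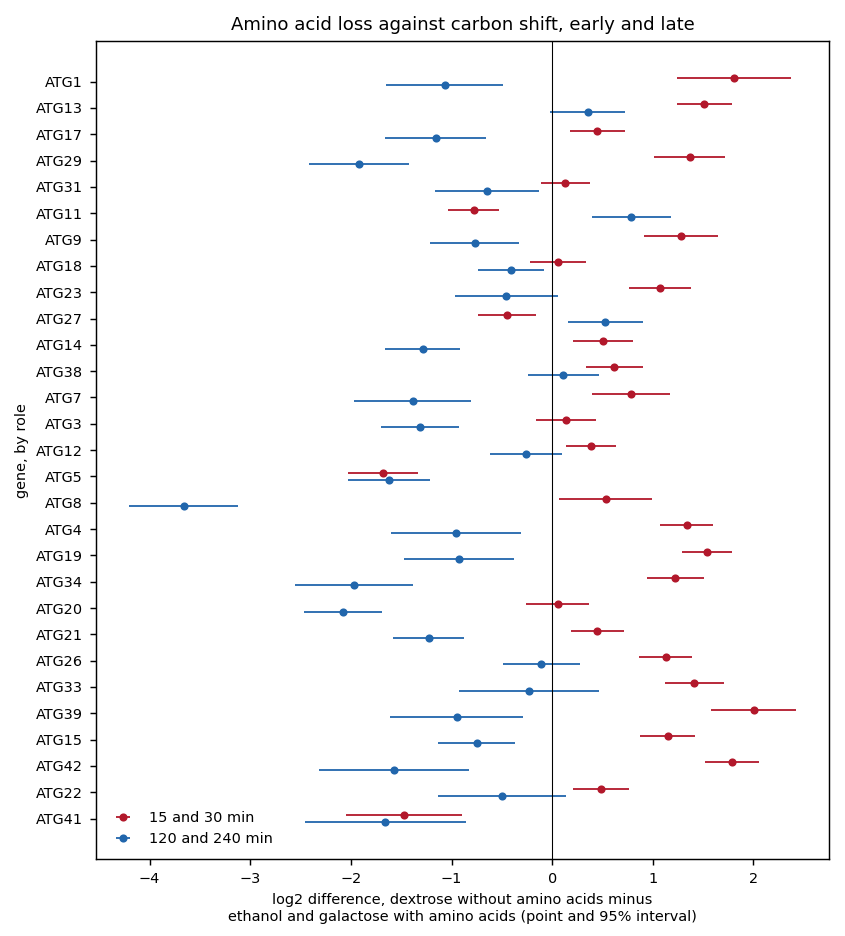
Log2 difference (horizontal axis) between dextrose without amino acids (2 cultures) and ethanol and galactose with amino acids (4 cultures) for the 29 members tested in both windows, early in red and late in blue. Points are fitted differences and bars 95% intervals. Most red points lie right of 0 and most blue points left of it, while ATG5 and ATG41 lie left of 0 in both and ATG11 and ATG27 run the other way. With quantile normalization 4 of the 25 early and 7 of the 23 late calls turned direction.

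Early, ATG39 differed most (2.00 ± 0.19, adjusted p = 2.18e-06, limma), followed by ATG1 (1.81 ± 0.26), ATG42 (1.79 ± 0.12), ATG19 (1.54 ± 0.11), ATG13 (1.51 ± 0.12) and ATG33 (1.41 ± 0.14). ATG42 was at 2.46 to 2.81 in the dextrose cultures without amino acids, against 0.26 to 1.32 in the carbon-shift cultures with them. Those ranges do not overlap. ATG9 (1.28 ± 0.17), ATG34 (1.22 ± 0.13), ATG15 (1.15 ± 0.12) and ATG22 (0.49 ± 0.13) were higher too. For ATG14 (0.51 ± 0.14) and ATG8 (0.53 ± 0.21, adjusted p = 0.0458, limma) the direction turned with quantile normalization, to -0.12 for ATG14 and -0.44 for ATG8. Without SD the calls of ATG14, ATG22 and ATG27 were lost, and that of ATG8 was lost in 8 of 13 fits that left out 1 culture. The 4 that were lower early were ATG5 (-1.68 ± 0.16), ATG41 (-1.47 ± 0.26), ATG11 (-0.78 ± 0.12) and ATG27 (-0.45 ± 0.13).

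Late, ATG8 differed most (-3.66 ± 0.24, adjusted p = 4.02e-06, limma). It was at 1.29 and 0.49 in SD and at 1.20 and 0.95 in SD+ino, against 4.21 to 5.45 in the carbon-shift cultures with amino acids. ATG20 (-2.08 ± 0.17), ATG34 (-1.97 ± 0.26), ATG29 (-1.92 ± 0.22) and ATG5 (-1.62 ± 0.18) were lower after amino acid loss, as was ATG41 (-1.66 ± 0.36, but 0.07 with quantile normalization). Further members that were lower were ATG14 (-1.29 ± 0.17), ATG1 (-1.07 ± 0.26), ATG9 (-0.77 ± 0.20), ATG15 (-0.75 ± 0.17) and ATG19 (-0.93 ± 0.24, but 0.31 with quantile normalization). Without SD+ino the calls of ATG1, ATG15, ATG19 and ATG27 were lost, and without SD those of ATG9, ATG19 and ATG27. The 2 that were higher were ATG11 (0.79 ± 0.17, but -0.17 with quantile normalization) and ATG27 (0.53 ± 0.17, also lost without SEtOH+aa+ino). ATG22 had -0.49 ± 0.28 and ATG13 0.35 ± 0.16.

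The change from early to late differed most for ATG8 (-4.19 ± 0.20, adjusted p = 1.1e-07, limma), ATG42 (-3.36 ± 0.31), ATG29 (-3.29 ± 0.16), ATG34 (-3.19 ± 0.22), ATG39 (-2.95 ± 0.17) and ATG1 (-2.88 ± 0.17). For ATG11 it was 1.57 ± 0.17 (but -0.04 with quantile normalization) and for ATG27 0.98 ± 0.15. The 2 members tested without a difference in change past the threshold were ATG5 (0.05 ± 0.25, 95% interval -0.51 to 0.61) and ATG41 (-0.18 ± 0.27, 95% interval -0.79 to 0.42). Within the ethanol and galactose cultures with amino acids, 23 of 29 members passed the test upwards from early to late and 3 downwards, where 34.7% of all genes went up and 38.9% down. The 3 were ATG11, ATG27 and ATG41. Quantile normalization turned 7 of these 26 directions (ATG3, ATG7, ATG9, ATG11, ATG14, ATG20 and ATG21).

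A few members stood apart in level from the courses of the medians. ATG5 was between 0.48 and 2.81 at every measured time in all 8 ethanol and galactose cultures, against -1.40 to 0.095 in the 5 dextrose cultures, SD+aa included, so the carbon source separated every value. ATG41 was between 1.35 and 5.30 in the ethanol and galactose cultures and between 0.76 and 4.65 in the dextrose cultures short of amino acids, against -0.50 to -0.18 in SD+aa. It was high at 15 min already and never below 0.76 in any of those 12 cultures. ATG13 was between 0.11 and 2.01 in the 4 dextrose cultures short of amino acids and between -0.88 and 0.29 in the ethanol and galactose cultures, with 0.08 to 0.63 in SD+aa. ATG11 was below 0 at all times in SD, SD+ino, SD+aa and every ethanol and galactose culture.

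**Figure D4:**
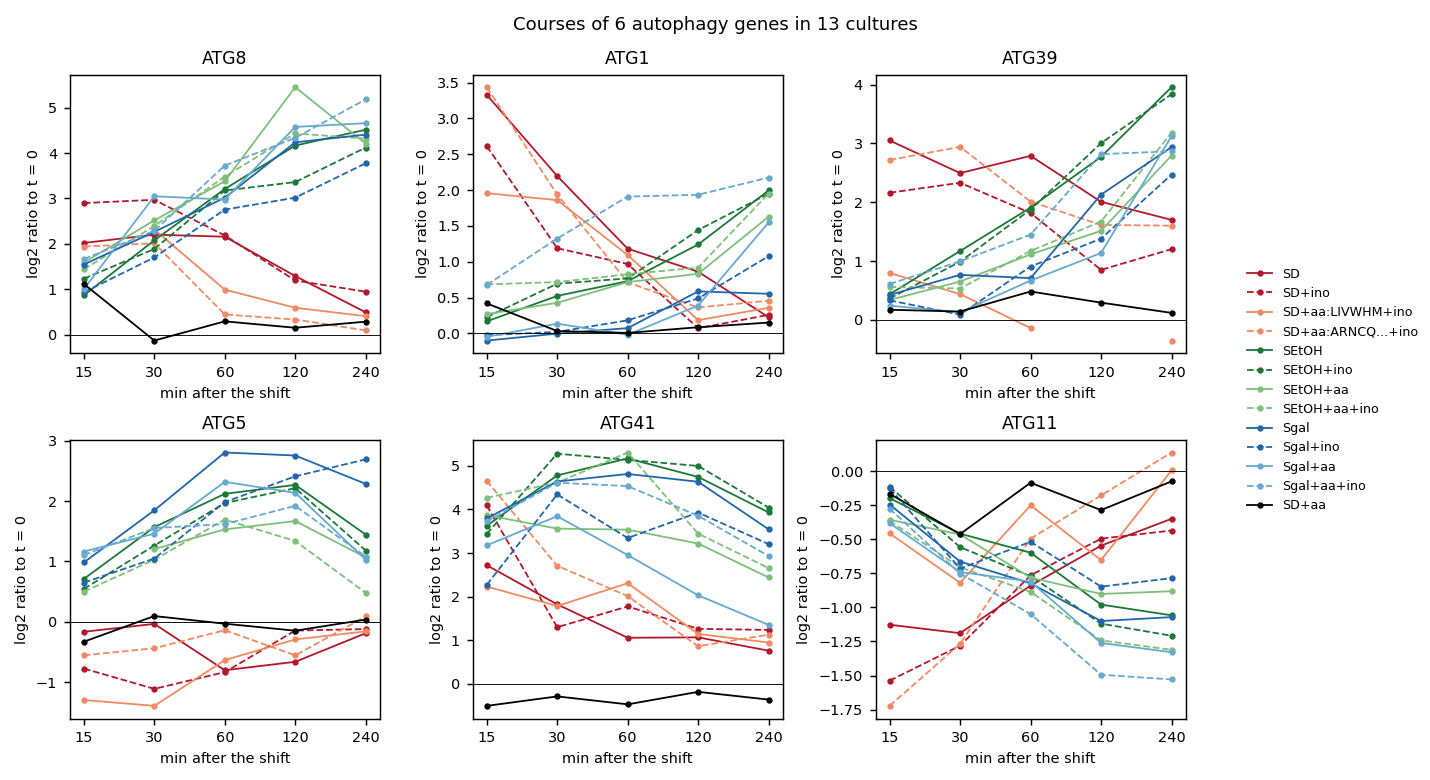
Log2 ratio to t = 0 (vertical axis, a scale of its own in each panel) of ATG8, ATG1, ATG39, ATG5, ATG41 and ATG11 at 15 to 240 min (horizontal axis, equal steps), 1 line per culture. ATG8 is at 3.77 to 5.18 at 240 min in the ethanol and galactose cultures, ATG1 is highest at 15 min in dextrose without all amino acids, ATG39 is low with LIVWHM, ATG5 separates by carbon source, ATG41 is near or below 0 in SD+aa and above it elsewhere, and ATG11 lies below 0 in most places.

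When the carbon source was changed too, few differences by amino acids passed the test among the autophagy genes. Over 15 and 30 min, 0 of 29 members passed the test in ethanol (SEtOH and SEtOH+ino against SEtOH+aa and SEtOH+aa+ino; 1 at an unadjusted p under 0.05), where 0.161% of all genes were called. In galactose (Sgal and Sgal+ino against Sgal+aa and Sgal+aa+ino) 0 of 29 passed as well (1 unadjusted), where 0.0% of all genes were called. These early tests were added after seeing the data. Over 120 and 240 min, 0 of 32 members passed in ethanol (5 unadjusted, 0 with trended and robust variances), where 0.652% of all genes were called. In galactose 1 of 32 passed (11 unadjusted), where 2.38% of all genes were called. Unadjusted, 274 of 4961 genes in ethanol and 289 of 4961 in galactose passed early, and 401 and 1228 of 5211 late. Late in galactose the median difference of the members was -0.28, against -0.01 for all genes. Of the 32 members, 24 were lower there without amino acids. The 1 gene that passed after adjustment was ATG5 (difference 0.99 ± 0.21, adjusted p = 0.0484, limma). It was at 2.76 and 2.29 in Sgal and at 2.41 and 2.69 in Sgal+ino. In Sgal+aa it was at 2.14 and 1.03, and in Sgal+aa+ino at 1.92 and 1.08. Its call was lost in 10 of 13 fits that left out 1 culture. Other late differences without amino acids were 1.49 ± 0.41 in ethanol and 1.28 ± 0.41 in galactose for ATG41 and 1.10 ± 0.34 in ethanol for ATG39, none past the threshold.

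An interaction, chosen after seeing the data, tested whether the effect of amino acid loss in dextrose differed from that in the other carbon sources. Over 15 and 30 min the effect in dextrose exceeded the mean effect in ethanol and galactose for 19 of 29 members and lay below it for 2, where 25.1% of all genes were above and 23.0% below (with ATG19 and ATG34 turned by quantile normalization). For ATG8 the effect was 2.01 ± 0.31 in dextrose, -0.47 ± 0.25 in ethanol and -0.39 ± 0.25 in galactose (interaction 2.44 ± 0.36, adjusted p = 0.000149, limma). Over 120 and 240 min, 0 of 32 members passed the interaction test in limma, where 1.04% of all genes were called. At an unadjusted p under 0.05 there were 6 members and 842 of 5211 genes.

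The partial amino acid media, 1 culture each, were set against SD and SD+ino and against each other over 15 and 30 min, in comparisons added after seeing the data. With LIVWHM present, 4 of 29 members were higher and 5 lower than without amino acids, where 14.3% of all genes were higher and 10.6% lower. With ARNCQGKPSDEFTY present, 0 were higher and 3 lower (ATG42, ATG29 and ATG26), where 11.9% of all genes were higher and 9.53% lower. Between the 2 sets, 5 members were higher with LIVWHM and 4 with ARNCQGKPSDEFTY, where 11.0% of all genes were higher and 7.92% lower with LIVWHM. Each of these media is 1 culture, so the SE and p of these differences come from the spread between the paired cultures in the fit, not from repeats of these media. The largest difference was in ATG39. It was at 0.80 and 0.44 (15 and 30 min) with LIVWHM, against 2.72 and 2.94 with ARNCQGKPSDEFTY (difference -2.21 ± 0.32, adjusted p = 0.000571, limma), and it stood at -0.35 and 1.60 in the same order at 240 min. ATG39 with LIVWHM was thus near SD+aa (0.17 and 0.14), while the other medium was near SD and SD+ino. ATG41 was at 2.23 and 1.79 with LIVWHM, against 4.65 and 2.71 with ARNCQGKPSDEFTY (difference -1.67 ± 0.43). ATG12 (-1.09 ± 0.18) and ATG5 (-0.85 ± 0.26) were lower with LIVWHM too. ATG27 (0.99 ± 0.21), ATG29 (0.94 ± 0.26), ATG11 (0.86 ± 0.19), ATG38 (0.82 ± 0.21) and ATG42 (0.77 ± 0.20) were higher with it.

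Inositol, present or absent, gave 0 member calls over 15 and 30 min (29 tested) and 0 over 120 and 240 min (32 tested). Among all genes tested it gave 0 calls in either window. At an unadjusted p under 0.05 there were 7 members and 351 of 4961 genes early, and 2 members and 233 of 5211 genes late. The spread in this test is that between the pairs with and without inositol, so 0 calls does not show that inositol had no effect.

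Members without a value in a partial amino acid medium were fitted without those media, over the other 11 cultures, an alternative chosen after seeing the data. Over 15 and 30 min, amino acid loss against carbon shift was 1.31 ± 0.13 for ATG40, the receptor for the endoplasmic reticulum (adjusted p = 5.91e-06, limma), and 1.14 ± 0.11 for ATG32 (adjusted p = 5.57e-06, limma). It was 0.70 ± 0.12 for ATG36, the receptor for peroxisomes (0.18 with quantile normalization), and 0.51 ± 0.18 for ATG45, a receptor for glycogen (0.90 with quantile normalization). ATG2, the lipid transfer protein, had 0.45 ± 0.19 and ATG16 0.18 ± 0.16, both short of the threshold. ATG36 had -2.36 ± 0.25 over 120 and 240 min (adjusted p = 6.81e-05, limma; -1.02 with quantile normalization). It was at 2.95 and 2.94 at 240 min in SEtOH+aa and SEtOH+aa+ino and at 3.29 and 2.86 in Sgal+aa and Sgal+aa+ino, against 0.33 in SD+aa. ATG10, the enzyme that hands Atg12 to Atg5, had -0.86 ± 0.19 early. In SEtOH+aa+ino its value at 15 min was at the lower limit and was taken as missing. The early value of that culture is thus the 30 min value (1.62) alone, and the early difference rests partly on it. The late value of ATG10 is not usable as a level: in SEtOH+aa+ino it was at the lower limit at 60 and 120 min, but at 1.13 at 240 min.

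Other genes of the pathway were read from lists, with each call adjusted over all genes. For reading their counts, the shares of all genes that were higher and lower were 27.6% and 24.5% early after amino acid loss in dextrose, 21.0% and 26.5% late in ethanol, and 25.1% and 31.9% late in galactose. All 11 tested vacuolar hydrolases and Cvt cargo enzymes rose over 15 and 30 min after amino acid loss in dextrose, with a median of 1.32, although quantile normalization turned the direction of AMS1, APE3 and PEP4. The largest differences were in the proteases PRB1 (2.26 ± 0.25), CPS1 (2.13 ± 0.27) and APE1 (2.12 ± 0.26), the last the main cargo of the Cvt route. Over 120 and 240 min all 11 rose in ethanol and 9 in galactose, with 0 falling (APE1 turned by quantile normalization in both), while CPS1 (3.99 ± 0.33) was the 1 that was higher after amino acid loss in dextrose. Of 19 tested genes of the autophagy machinery under other names, 9 rose early after amino acid loss and 0 fell (SNX4 turned by quantile normalization). They include VTI1 (1.36 ± 0.18), which acts in vesicle fusion, NVJ1 (1.34 ± 0.19), which joins the nucleus to the vacuole, and VAC8 (1.03 ± 0.17), a vacuolar protein of the Cvt route. Late, 7 rose and 0 fell in ethanol and 7 rose and 2 fell in galactose, SNX4 by 1.73 ± 0.24 in ethanol and HSV2 by 2.06 ± 0.30 in galactose.

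The shares of regulators and of kinases that rose in these 3 comparisons were near those of all genes or below them. Of 15 tested regulators known to act on autophagy transcription, 5 rose early after amino acid loss in dextrose and 0 fell, GAT1 and MSN2 with a direction that quantile normalization turned. They were GAT1 (2.10 ± 0.22) and GLN3 (1.03 ± 0.23), activators of nitrogen genes, MSN4 (1.83 ± 0.21) and MSN2 (0.55 ± 0.18), activators of stress genes, and GZF3 (0.76 ± 0.17). Late, 2 rose and 0 fell in ethanol, and 4 rose and 2 fell in galactose. UME6, a repressor of ATG8, rose by 0.91 ± 0.26 late in galactose. Of the nutrient kinases and TORC1 genes, 5 of 15 rose and 2 fell early after amino acid loss, with TOR1 (1.56 ± 0.21) and TPK2 (1.50 ± 0.26) the largest. Late in ethanol 4 of 16 rose and 1 fell, and in galactose 5 of 16 rose and 3 fell, with TPK2 and TPK3 turned by quantile normalization in ethanol and TPK3 in galactose. LST8, a TORC1 subunit, rose by 3.49 ± 0.27 and 2.92 ± 0.27 in these shifts.

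Across the 65 combinations of culture and time, 23 of 36 members had a Pearson correlation above 0.5 with the mean of the other members, and ATG11 (-0.87) and ATG27 (-0.69) had one below 0. The highest were ATG34 (0.94, 61 combinations), ATG7 (0.91), ATG29 (0.91) and ATG36 (0.90, 60 combinations). Outside the group, the genes most like the mean of the members were RNY1 (0.95), YKL091C (0.95), HFD1 (0.95), ATH1 (0.95) and VHS3 (0.94). The genes most like ATG8 were MPM1 (0.96), UGX2 (0.96), YMR181C (0.95), AIM17 (0.94) and QCR8 (0.94). The points share cultures and the t = 0 reference, so these values are descriptions. The members include ATG10, whose values at the lower limit in SEtOH+aa+ino at 60 and 120 min were kept.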

How the data were processed

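Yeast mRNA was measured on 73 2-colour arrays, 5 time points for each of 13 cultures plus 8 repeat arrays, which were averaged with their partners. The authors deposited 1 table of log ratios, taken here to be log10 of Cy5 over Cy3. Their base, direction and normalization are not given in the sources used here, and they were multiplied by 3.32 to give log2. The table has 6256 probes, 5568 with 1 gene symbol and 688 with none, and 5563 were found in the R64 gene table, from which names were taken. Probes of a gene were averaged. Values at exactly 2 or -2 with no repeat or neighbouring time at 1 or more in the same direction (317 of 513) were taken as missing.

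Each culture gave 1 value per window, early (15 and 30 min) or late (120 and 240 min), for genes with a value in every culture. The 13 cultures were fitted in limma 3.58.1 (R 4.3.3; lmFit, eBayes) with a mean for each combination of carbon source and amino acids and a term for inositol. P-values were 2-sided and adjusted over all genes (Benjamini-Hochberg), with a threshold of 0.05. Each medium was 1 culture, per the labels. The p-values rest on the spread between paired cultures with and without inositol, after a common inositol term. SD+aa and the partial amino acid media add nothing to that spread. The fit was tested on simulated data. The repeats in SD+ino and Sgal+ino carry an unexplained note and the technical replicate number of their partners. The repeated times of SEtOH+aa follow the titles (60 and 120 min), from which the design text differs. That text does not name D, E and Y as left out of the LIVWHM medium and lists the ARNCQGKPSDEFTY medium without inositol; the titles were followed.

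The members and the lists were chosen with earlier results of these data known. All members may be named. Full statistics were given for up to 6 higher and 6 lower members past the threshold per comparison, and for ATG1, ATG8, ATG9, ATG14, ATG19, ATG34, ATG11, ATG15 and ATG22. Other genes came from the lists, up to 3 each, and UME6, SNX4, HSV2, MSN2, GZF3, LST8 and the statistics of further members were chosen after their values were seen. The alternatives were centring or quantile normalization of arrays, other treatment of limit values, first arrays of repeats, genes with a value on every array, trended and robust variances, other windows, 11 cultures, and leaving out each culture. No group held 4 or more cultures, so none was tested for outlying cultures.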

Additional observations from a re-analysis of the deposited data

Results flagged for a closer look

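The effect of amino acid loss over 15 and 30 min differed between dextrose and the other carbon sources for 21 of 29 members, tested as an interaction in limma (effect in dextrose minus the mean effect in ethanol and galactose, log2). Of all genes tested, 25.1% lay above 0 and 23.0% below in that test. It was above 0 for ATG41 (2.71), ATG8 (2.44), ATG1 (2.38), ATG39 (2.33), ATG29 (2.31), ATG9 (2.05), ATG42 (1.96), ATG7 (1.59), ATG19 (1.57), ATG14 (1.34), ATG21 (1.32), ATG4 (1.29), ATG34 (1.24), ATG26 (1.23), ATG15 (1.12), ATG20 (1.03), ATG13 (1.00), ATG33 (0.97) and ATG3 (0.74). It was below 0 for ATG27 (-0.61) and ATG11 (-1.06). The effect in dextrose rests on SD+aa as the 1 culture with amino acids. Within ethanol and within galactose, 0 of these members passed the test of amino acid loss in that window. With quantile normalization the interaction turned for ATG19 (-0.12) and ATG34 (-1.61).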

How the results depend on the processing

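Counts are of members past the threshold in limma. Except for the mean over 5 times, they are given without the share of all genes called under the same setting. They do not show an excess of members over all genes. With quantile normalization, which gives every array the same spread, amino acid loss in dextrose had 13 of 29 early and 10 of 32 late, amino acid loss in galactose 0 late, the ethanol shift 12 late, and amino acid loss against carbon shift 14 late. The spread itself differed: the SD over genes was 1.11 to 1.28 early and 0.44 to 0.65 late in SD and SD+ino, against 0.45 to 0.83 and 1.12 to 1.56 in ethanol and galactose with amino acids. Among the members called, quantile normalization reversed 3 of 21 in amino acid loss in dextrose early, ATG3 (-0.07), ATG19 (-0.29) and ATG34 (-1.31). It reversed ATG21 (-0.07) of 20 in the late ethanol shift and 6 of 22 in the late galactose shift, among them ATG19 (-0.30) and ATG34 (-0.10). In amino acid loss against carbon shift it reversed 4 of 25 early, among them ATG14 (-0.12) and ATG8 (-0.44), 7 of 23 late, among them ATG11 (-0.17), ATG19 (0.31), ATG41 (0.071) and ATG39 (0.83), and 5 of 27 in the change, among them ATG11 (-0.04). The mean over 5 times, which merges early and late, gave 17 of 31 for amino acid loss in dextrose (against 0 late), where 1427 of 5158 genes were called. It gave 0 for amino acid loss in galactose, where 25 of 5158 genes were called. For amino acid loss against carbon shift it gave 15 of 31 (against 25 early and 23 late), where 2708 of 5158 genes were called. Members were thus called no more often there than all genes. The mean over 5 times reversed ATG11 (0.019), ATG14 (-0.39), ATG27 (0.065) and ATG8 (-1.50) relative to the early window. Relative to the late one it reversed ATG1 (0.34), ATG15 (0.22), ATG19 (0.38) and ATG9 (0.19).

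Only 9 members had a value on every array, which leaves 8 calls for amino acid loss in dextrose early, 0 for amino acid loss in galactose, 6 for the ethanol and 7 for the galactose shift, and 7 early, 8 late and 8 in the change for amino acid loss against carbon shift. The 1 call of amino acid loss in galactose (ATG5) also went to 0 with values at the limit kept, with the first array of each repeat, with trended and robust variances and with 11 cultures. Leaving out 1 culture gave 19 to 23 calls for amino acid loss in dextrose early and 0 to 1 late, 0 to 1 in ethanol, and 0 to 4 in galactose (4 without Sgal+aa). The ethanol shift had 14 to 26, the galactose shift 21 to 26, and amino acid loss against carbon shift 20 to 28 early, 16 to 25 late and 25 to 30 in the change. Without SD+aa, comparisons with it have no value. Centring each array moved the median of all genes in amino acid loss against carbon shift early to -0.05, against 0.06. Quantile normalization moved it late to -0.004, against 0.11. The share of higher calls among all genes went to 44.3% with quantile normalization for amino acid loss in dextrose late, against 85.9%, and to 100.0% (2 calls) in galactose late, against 76.6%. No paired analysis was possible because each medium was 1 culture and all cultures carry the same replicate number. Signal over background could not be weighed here, since the table holds ratios only.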
